A study of Sus scrofa with 12 samples.

Results

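The genes described here are 10 targets of the hypoxia-inducible factors that lie outside glycolysis, taken by name from the 25880 genes counted in pig striatum. They are the prolyl hydroxylases EGLN1 and EGLN3, the factor subunit HIF3A, the secreted proteins VEGFA and STC2, and RAB20, BNIP3, NDRG1, P4HA1 and ANKRD37. All 10 names were found in the table, and 9 of them passed the filter on low counts. ANKRD37 did not, so it has no value in the main edgeR test. Names alone chose these genes, with earlier results of these data known.

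RNA was sequenced from the striatum, a deep forebrain region rich in inhibitory spiny projection neurons, of 12 newborn piglets. The 6 sham animals were held under 4% isoflurane. The 6 animals exposed to deep hypothermic circulatory arrest (DHCA) received the same anaesthetic, were opened by sternotomy, put on cardiopulmonary bypass and cooled to 18 °C. Their circulation was stopped for 30 min, they were rewarmed to 37 °C on bypass, and tissue was taken after 6 h of recovery. A recovery time is given for the DHCA animals, while none is given for the sham animals in the sources used here. Surgery, bypass, cooling, arrest and rewarming cannot be told apart in this comparison. Nor can any difference between the groups in recovery time or in time under anaesthetic. Each library came from its own piglet, so the errors below are between animals.

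Hypoxia-inducible factors are pairs of an oxygen-regulated alpha subunit, such as HIF1A, EPAS1 or HIF3A, and the constant partner ARNT. With oxygen present, the EGLN prolyl hydroxylases mark the alpha subunit for destruction through the VHL ubiquitin ligase, and when oxygen falls the factor accumulates and switches on its targets. These include genes for vessel growth, for the removal of mitochondria, for collagen processing and for the hydroxylases themselves, which close a feedback loop. The factor is controlled mainly at the protein level, which RNA counts do not measure.

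Library totals ran from 1377809 to 12933536 counts in the sham group and from 5434652 to 9997400 in the DHCA group. Sham 1 and Sham 5 were the shallowest, with 2515816 and 1377809 counts. Genes of the mitochondrial chromosome took up 4.01% and 7.30% of them, less than in any other library (10.6% to 26.3%). Sham 4 went against its tissue label. There the 16 spiny neuron markers, all detected, held 0.0475% of counts against 0.325% to 0.871% in the other 11 libraries. The 9 markers of cortical or thalamic neurons, also all detected, held 0.117% in Sham 4 against 0.00271% to 0.00974%. Values without these libraries stand beside each tested member below. Levels are CPM, counts scaled to a common library size with TMM factors, and fold changes are DHCA over sham from the edgeR quasi-likelihood test, with Benjamini-Hochberg adjustment over all 14004 tested genes and a threshold of 0.05.

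Of the 9 tested members, 1 passed the edgeR test. This was RAB20, which rose after DHCA. Over all genes tested, 26 passed (0.186%), 19 of them higher (0.136%) and 7 lower (0.05%). The groups did not overlap in 2 members, RAB20 and STC2, both higher in DHCA, against 139 of all tested genes (0.993%), 95 of them higher (0.678%). The fitted log2 fold change was above 0 in 3 members and below 0 in 6. Its median was -0.07 over the 9 members and -0.003 over all tested genes, of which 49.5% were above 0. The members did not share a direction.

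**Figure D1:**
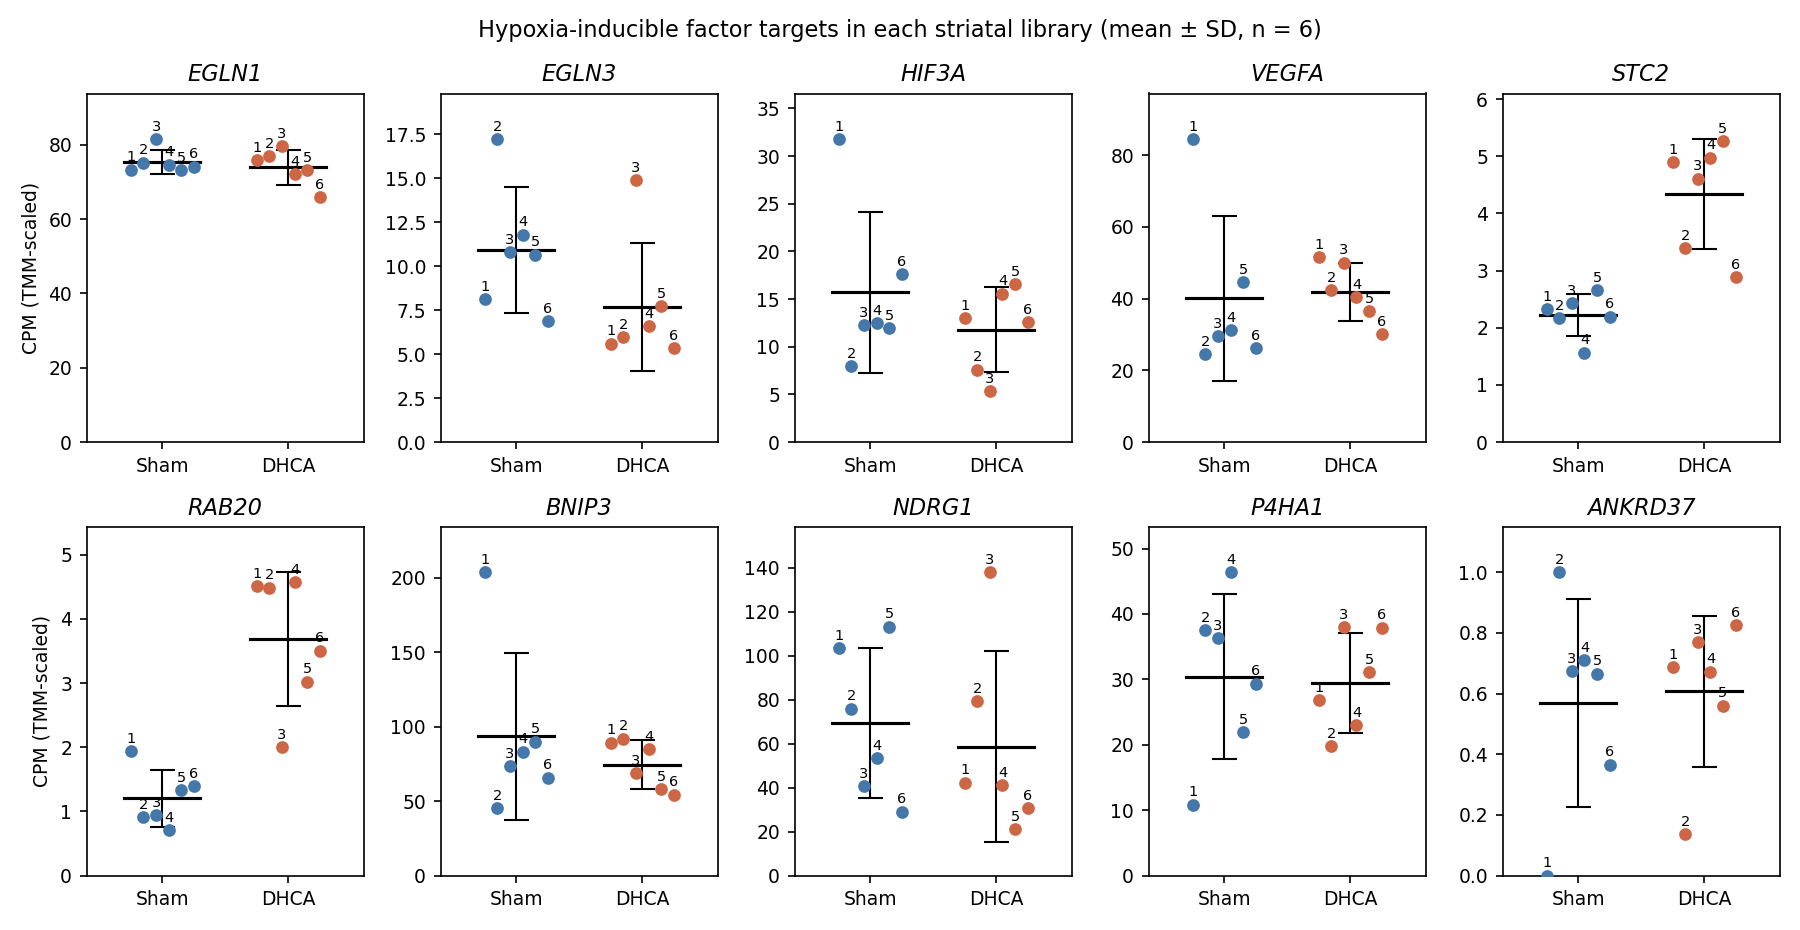
Level of each of the 10 genes (TMM-scaled CPM, vertical axis, a scale of its own from 0 in each panel) in the 6 sham and 6 DHCA libraries, 1 numbered point per piglet, with the group mean as a bar and its SD as whiskers. RAB20 and STC2 show no overlap between groups, while VEGFA and BNIP3 each have 1 sham library, Sham 1, far above the rest.

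RAB20 encodes a small GTPase of endosomes and maturing phagosomes (ENSSSCG00000022719, Sscrofa11.1 chromosome 11, 77167056 to 77188898, minus strand). Its level was 0.711 CPM in the lowest sham library, 1.14 at the sham median and 1.94 in the highest. In DHCA the lowest, median and highest values were 2.00, 3.99 and 4.57 CPM. All 6 DHCA libraries lay above all 6 sham libraries, though the lowest of them, DHCA 3, was close to the highest sham library, Sham 1. The mean rose from 1.21 ± 0.444 to 3.68 ± 1.04 CPM (SD, n = 6 per group). The fitted fold from edgeR was 3.24, with a 95% interval of 2.05 to 5.11. On the log2 scale the change was 1.69 (SE 0.31, edgeR adjusted p = 0.0415).

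The gene is scarce, with 219 counts in all 12 libraries, and Sham 5 held 2 of them. The size of the change was steadier than its call. Across 23 alternatives the log2 fold change of RAB20 stayed between 1.57 and 1.85, and it passed the threshold in 8. Among the 12 fits that each leave out 1 library it passed in 2, those without Sham 1 (adjusted p = 0.0336) and without DHCA 3 (adjusted p = 0.0324). In the other 10 the edgeR adjusted p of RAB20 ran from 0.0639 to 0.126. Without Sham 4 the log2 fold change was 1.57 (adjusted p = 0.097), without Sham 1 and Sham 5 it was 1.85 (adjusted p = 0.074), and without all of these it was 1.73 (adjusted p = 0.184). The DESeq2 Wald test gave 1.72 (adjusted p = 0.000608).

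STC2 encodes stanniocalcin 2, a secreted glycoprotein (ENSSSCG00000016983, chromosome 16, 50989696 to 51005628, plus strand). Sham libraries ran from 1.56 CPM through a median of 2.26 to 2.66. DHCA libraries ran from 2.89 through 4.76 to 5.26 CPM. The groups did not overlap, and the gap between the highest sham library, Sham 5, and the lowest DHCA library, DHCA 6, was small.

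Mean STC2 was 2.22 ± 0.37 CPM in sham and 4.34 ± 0.964 in DHCA (SD, n = 6 per group). The fitted fold from edgeR was 2.00, with a 95% interval of 1.42 to 2.82, or 1.00 on the log2 scale (SE 0.23). It did not pass the edgeR test over all genes (adjusted p = 0.138, the 71st smallest p). Nor did it pass without Sham 4 (0.91, adjusted p = 0.276), without Sham 1 and Sham 5 (1.05, adjusted p = 0.169) or without all of these (0.95, adjusted p = 0.402). The DESeq2 Wald test, which called 181 of 14650 genes (1.24%), did call STC2 (1.03, adjusted p = 0.0228) as well as RAB20. Limma-voom with sample quality weights, which called 207 of 14004 genes (1.48%), called both too (STC2 0.99, adjusted p = 0.017). STC2 rested on 298 counts over the 12 libraries, 4 of them in Sham 5.

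VEGFA encodes the growth factor that drives the sprouting of blood vessels, and is among the best known targets of the pathway (ENSSSCG00000001695, chromosome 7, 38746055 to 38762342, plus strand). The lowest, median and highest sham values were 24.5, 30.4 and 84.5 CPM. In DHCA they were 30.1, 41.4 and 51.7 CPM. All 6 DHCA libraries lay within the sham range, and 5 of them lay above the sham median. The sham library at 84.5 CPM was Sham 1, and the other 5 sham libraries went no higher than 44.6.

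With all libraries VEGFA did not pass (40.1 ± 22.9 against 41.9 ± 8.15 CPM, SD over 6 piglets each; log2 fold change 0.09, SE 0.29, edgeR adjusted p = 0.949). The 95% interval of the fold runs from 0.691 to 1.63, which takes in a rise of up to 1.63-fold. The estimate moved when the shallow sham libraries were left out. Without Sham 1 the log2 fold change of VEGFA was 0.45 (adjusted p = 0.534), and without Sham 1 and Sham 5 it was 0.59 (adjusted p = 0.292). Without Sham 4 it was 0.02 (adjusted p = 0.992), and without all of these 0.65 (adjusted p = 0.46). Down-weighting aberrant libraries in limma-voom gave 0.58 (adjusted p = 0.105). None of the 23 alternatives called VEGFA.

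EGLN1, the main oxygen-sensing prolyl hydroxylase, was the steadiest member (ENSSSCG00000010172, chromosome 14, 59112899 to 59169716). It ran from 73.2 to 81.6 CPM in sham, with a median of 74.4, and from 65.9 to 79.6 in DHCA, with a median of 74.5. The groups overlapped, with 3 of the 6 DHCA libraries within the narrow sham range and 3 below it. Sham 1, Sham 4 and Sham 5 did not stand apart in this gene. The means were 75.3 ± 3.15 and 73.9 ± 4.74 CPM (SD, n = 6 piglets each; log2 fold change -0.03, SE 0.12, edgeR adjusted p = 0.963). The 95% interval of the fold was 0.822 to 1.17. Over the 12 libraries the coefficient of variation of EGLN1 was 5.24%, against a median of 31.2% over all tested genes. Only 6 of the 14004 tested genes (0.0428%) had a smaller one. Leaving out Sham 1 and Sham 5 gave -0.05, leaving out Sham 4 gave -0.04 and leaving out all of these gave -0.06, none of which passed.

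EGLN3, the related hydroxylase that is usually the more inducible in hypoxia, was at a lower level (ENSSSCG00000001963, chromosome 7, 65805487 to 65833573). Sham values ran from 6.88 through a median of 10.7 to 17.2 CPM. DHCA values ran from 5.36 through 6.28 to 14.9 CPM. In 4 of 6 DHCA libraries EGLN3 was below every sham library, and the DHCA library at 14.9 CPM was DHCA 3.

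Mean EGLN3 was 10.9 ± 3.60 CPM in sham and 7.69 ± 3.63 in DHCA (SD, n = 6 per group). The log2 fold change was -0.52 (SE 0.29, edgeR adjusted p = 0.748), a value that did not pass. Leaving out 1 library gave values from -0.83 without DHCA 3 (adjusted p = 0.35) to -0.31 without Sham 2 (adjusted p = 0.619). It was -0.60 without Sham 1 and Sham 5 (adjusted p = 0.716), -0.51 without Sham 4 (adjusted p = 0.775) and -0.60 without all of these (adjusted p = 1.00). The sign of EGLN3 was negative in all of these fits.

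HIF3A encodes an alpha subunit with isoforms that can hold back the other alpha subunits (ENSSSCG00000003101, chromosome 6, 52345102 to 52373058). Its sham values ran from 7.99 through a median of 12.4 to 31.8 CPM, the last of these in Sham 1. Its DHCA values ran from 5.38 through 12.8 to 16.6 CPM. The groups overlapped, and the DHCA median was slightly above the sham median although the DHCA mean was below the sham mean. The means of HIF3A were 15.7 ± 8.46 and 11.8 ± 4.43 CPM (SD, n = 6 piglets each; log2 fold change -0.39, SE 0.34, edgeR adjusted p = 0.812). Without Sham 1 the log2 fold change was -0.09 (adjusted p = 1.00). It was -0.54 without Sham 2 (adjusted p = 0.469), the lowest value with 1 library left out. It was -0.45 without Sham 4, -0.09 without Sham 1 and Sham 5, and -0.10 without all of these, and none passed.

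BNIP3 encodes a mitochondrial outer membrane protein that marks mitochondria for autophagy (ENSSSCG00000024388, chromosome 14, 140362124 to 140367892, minus strand). In sham it ran from 45.4 through a median of 78.3 to 203.6 CPM, and in DHCA from 54.4 through 77.0 to 92.0. The DHCA libraries all lay within the sham range, and the medians were almost equal. The highest value belonged to Sham 1, and the next sham library stood at 89.9 CPM. Mean BNIP3 was 93.6 ± 56.1 in sham and 74.6 ± 16.4 in DHCA (SD, n = 6 piglets each; log2 fold change -0.32, SE 0.31, edgeR adjusted p = 0.823). Without Sham 1 the sign turned, to 0.07. It was 0.16 without Sham 1 and Sham 5 and 0.28 without Sham 1, Sham 4 and Sham 5, while without Sham 4 alone it was -0.36. None of these BNIP3 values passed.

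NDRG1 encodes a stress-responsive cytoplasmic protein that is also abundant in myelinating glia (ENSSSCG00000005944, chromosome 4, 8014439 to 8071406). Its sham values ran from 29.1 through a median of 64.7 to 113.2 CPM. Its DHCA values ran from 21.3 through 41.6 to 137.8 CPM, the lowest in DHCA 5 and the highest in DHCA 3. Both ends of the whole range were thus DHCA libraries. The means of NDRG1 were 69.3 ± 34.1 and 58.7 ± 43.5 CPM (SD, n = 6 piglets each; log2 fold change -0.22, SE 0.45, edgeR adjusted p = 0.908). Leaving out 1 library gave values from -0.69 without DHCA 3 to -0.03 without Sham 5. The log2 fold change was -0.30 without Sham 4, 0.24 without Sham 1 and Sham 5 and 0.27 without Sham 1, Sham 4 and Sham 5. None passed, and with the widest error of the 9 the 95% interval of the fold was 0.442 to 1.66.

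P4HA1 encodes the catalytic subunit of collagen prolyl 4-hydroxylase (ENSSSCG00000010292, chromosome 14, 75825115 to 75919125, minus strand). It ran from 10.9 through a median of 32.8 to 46.3 CPM in sham, with its lowest value in Sham 1 and its highest in Sham 4. In DHCA it ran from 19.8 through 29.0 to 37.9. All DHCA libraries lay within the sham range. The means were 30.4 ± 12.6 and 29.4 ± 7.59 CPM (SD, n = 6 piglets each; log2 fold change -0.07, SE 0.29, edgeR adjusted p = 0.961). P4HA1 gave -0.24 without Sham 1, 0.08 without Sham 4, -0.34 without Sham 1 and Sham 5 and -0.23 without all of these, and none passed.

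ANKRD37, an ankyrin-repeat gene used as a hypoxia marker, had 55 counts in the 12 libraries (ENSSSCG00000015798, chromosome 15, 46445881 to 46450097). Counts ran from 0 in Sham 1 to 12 in Sham 2, and DHCA libraries held 1 to 7. The 0 in Sham 1 allows a level of up to 1.16 CPM there (3 counts, counting error only), which is above the highest value in any library, 0.999 CPM. Means were 0.569 ± 0.344 CPM in sham and 0.608 ± 0.248 in DHCA (SD, n = 6 per group), and no difference was detectable at this depth. With no low-count filter, edgeR gave a log2 fold change of -0.02 (SE 0.49, unadjusted p = 0.969). Without Sham 1 and Sham 5 the sham mean of ANKRD37 was 0.687 CPM, which lies above the DHCA mean. Its exons overlap those of UFSP2, and the counting command sets no strand, so counts of the pair may be shared or lost. No other member had such an exon overlap.

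**Figure D2:**
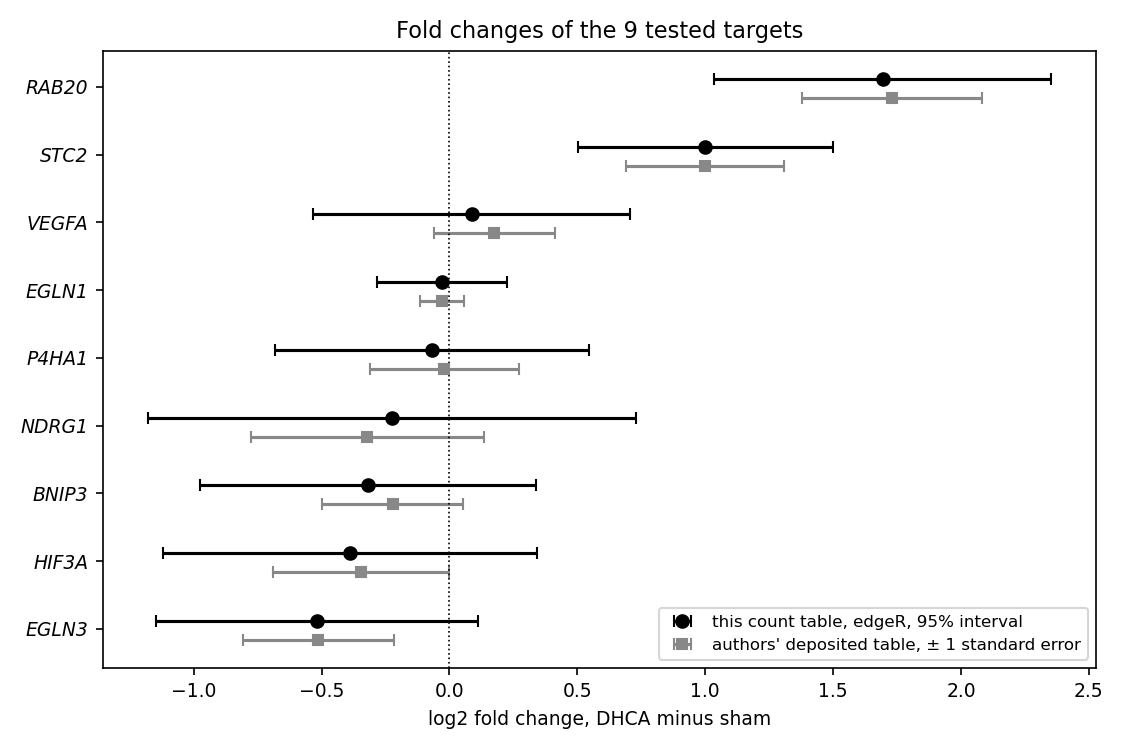
Log2 fold change, DHCA minus sham (horizontal axis), of the 9 tested genes from edgeR (black, whiskers for the 95% interval) and from the authors' deposited table (grey, whiskers for 1 standard error). The edgeR intervals of RAB20 and STC2 lie above 0, and those of the other 7 genes span 0.

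Levels between genes can be compared only per length, so mean RPKM, which is CPM per kilobase of exon, is given here. In sham, BNIP3 was the most abundant member at 71.4 RPKM, followed by EGLN1 at 15.95, NDRG1 at 13.7, VEGFA at 10.9, HIF3A at 7.77 and P4HA1 at 5.94. EGLN3 was at 3.32, RAB20 at 0.843, STC2 at 0.433 and ANKRD37 at 0.262 RPKM. Library ranges of neighbours in this order overlapped in 7 of 9 cases, the exceptions being BNIP3 above EGLN1 and EGLN3 above RAB20. In DHCA the order was the same but for RAB20, at 2.57 RPKM, which stood above EGLN3, at 2.34, with overlapping ranges. Neighbours overlapped in 5 of 9 cases there. The 2 members whose groups did not overlap were thus among the 3 least abundant in sham.

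The same few libraries set the extremes of several members. Sham 1 was the highest sham library in 4 of the 10 genes (VEGFA, RAB20, BNIP3 and HIF3A) and the lowest in 2 (P4HA1 and ANKRD37). DHCA 3 was the highest DHCA library in 4 (EGLN1, EGLN3, NDRG1 and P4HA1) and the lowest in 2 (RAB20 and HIF3A). DHCA 6 was the lowest DHCA library in 5 (VEGFA, STC2, EGLN1, EGLN3 and BNIP3).

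**Figure D3:**
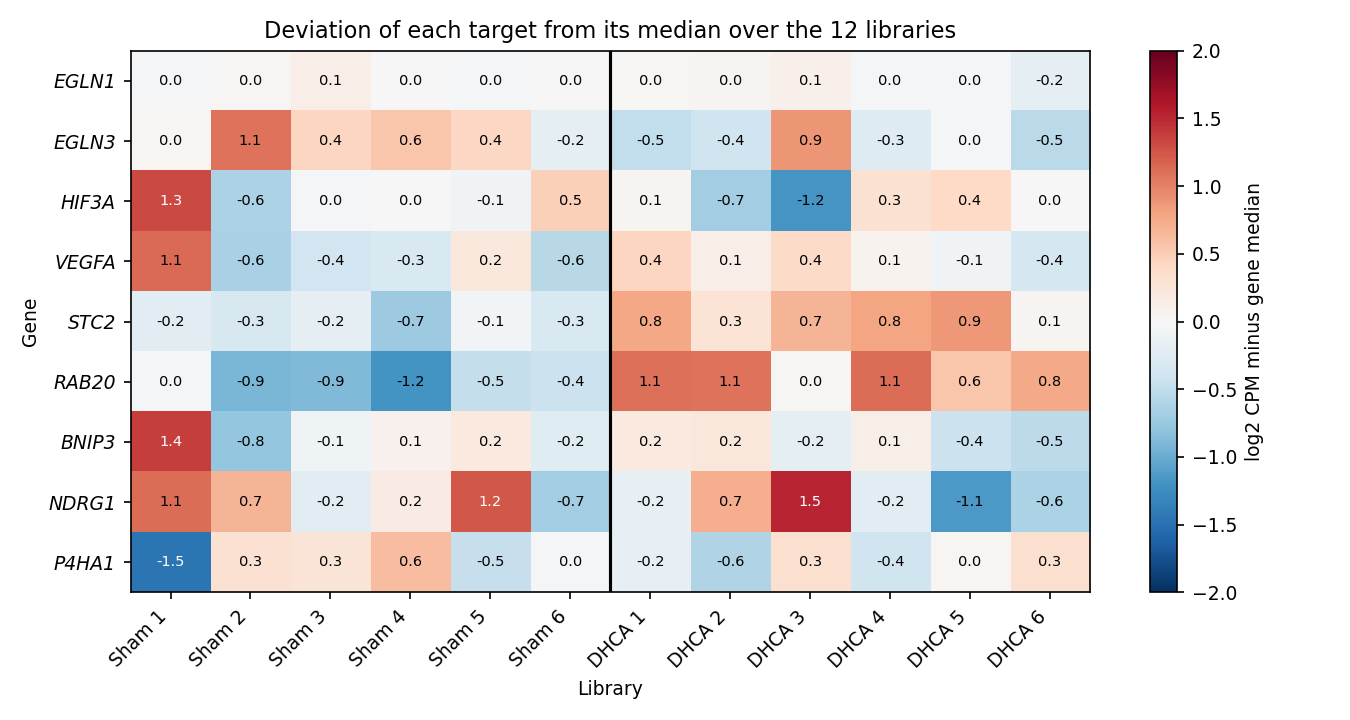
Deviation of each library (columns) from the gene's median over the 12 libraries for the 9 tested genes (rows), in colour and as printed values of log2 CPM. Sham 1 is far above the median in VEGFA, BNIP3 and HIF3A and below it in P4HA1. DHCA 3 is above the median in EGLN3 and NDRG1 and below it in HIF3A.

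These extremes were set beside the share of counts in 11 cell type marker lists and on the mitochondrial chromosome. Over the 9 tested members and 12 measures, 108 correlations of log2 CPM with the log2 share across the 12 libraries were computed, a step added after the values had been seen. In 4 of them both Pearson's r and Spearman's rho had an adjusted p under 0.05 by permutation. They involved NDRG1, BNIP3 and P4HA1, none of which passed the test between groups.

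NDRG1 followed the 7 detected oligodendrocyte markers, which held 1.03% to 3.26% of counts in sham and 0.478% (DHCA 5) to 6.10% (DHCA 3) in DHCA. Pearson's r was 0.961 and rho 0.951 (permutation p = 1e-05 for r, the smallest the permutations can give, adjusted p = 0.00054; adjusted p for rho = 0.00108). Leaving out DHCA 3 and DHCA 5, the libraries farthest from the median share, left r at 0.946. Within the sham group r was 0.929 and within DHCA 0.99, and without Sham 4 it was 0.964. A correlation of this size with the same list was found in 0.221% of tested genes. NDRG1 also followed the 7 oligodendrocyte precursor markers (r 0.93, rho 0.888, permutation adjusted p for r = 0.00054). In bulk tissue, fewer cells of a type and less RNA per cell cannot be told apart.

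BNIP3 was lower where the mitochondrial chromosome held more of the counts, with r -0.907 and rho -0.937 (permutation p = 0.00011 and adjusted p = 0.00297 for r). Without Sham 1 and Sham 5, the libraries farthest from the median share, r was -0.793, and it was -0.901 within sham and -0.949 within DHCA. P4HA1 was higher there, with r 0.923 and rho 0.832 (permutation p = 0.00011 and adjusted p = 0.00297 for r). Its r was 0.809 without Sham 1 and Sham 5, 0.962 within sham and 0.909 within DHCA. Many genes followed this share, since correlations as large were found in 9.78% of tested genes for BNIP3 and 6.54% for P4HA1. The share and the CPM of a gene have the library total in common. VEGFA gave r -0.774 with the mitochondrial share, which did not pass after adjustment by permutation (adjusted p = 0.0679). A correlation as large was found in 31.6% of tested genes, and without Sham 1 and Sham 5 the r of VEGFA was -0.474.

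**Figure D4:**
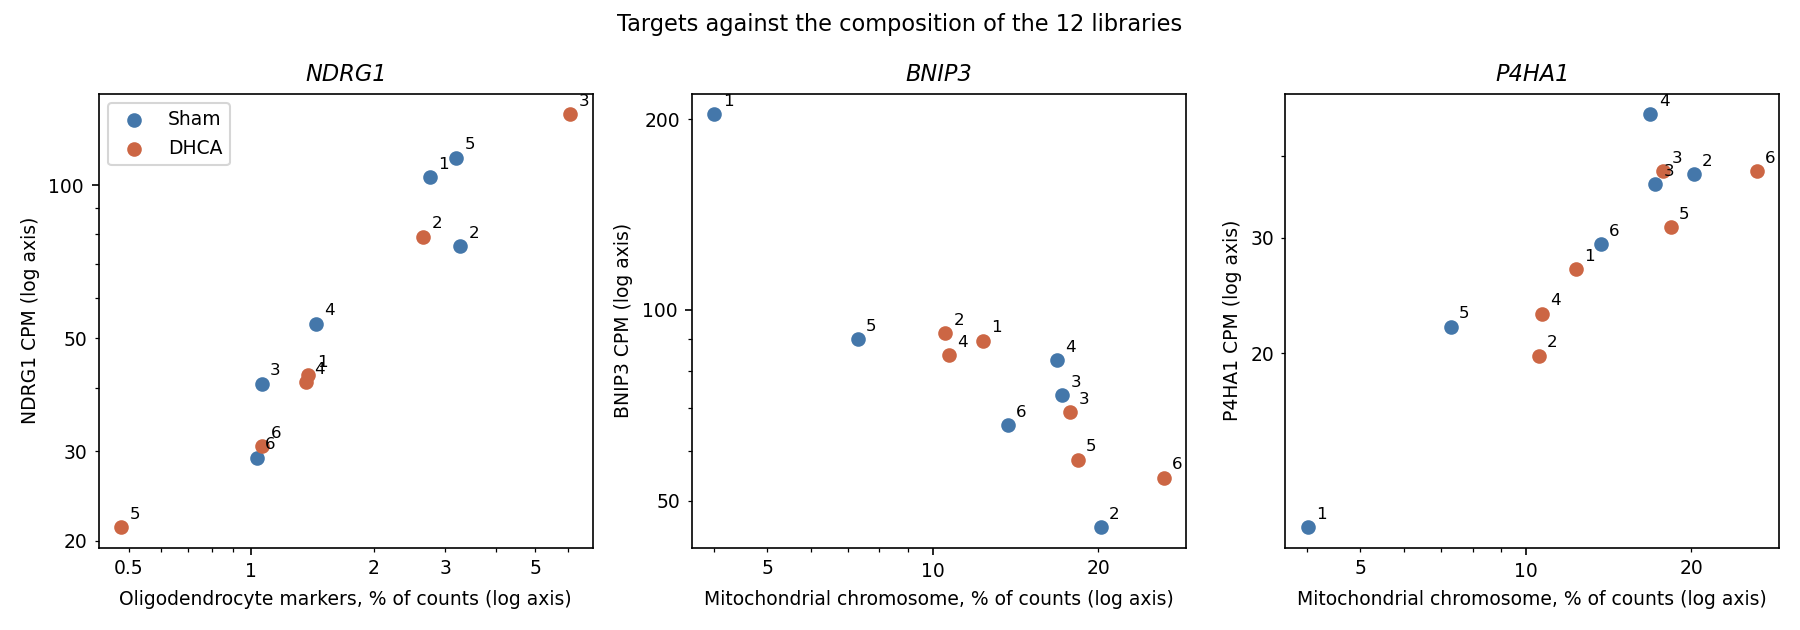
Level of NDRG1 against the share of counts in oligodendrocyte markers, and of BNIP3 and P4HA1 against the share on the mitochondrial chromosome (horizontal axes, percent of counts; vertical axes, CPM; all log axes), 1 numbered point per library and a colour per group. NDRG1 rises along the range from DHCA 5 to DHCA 3, and libraries of both groups lie along each trend.

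For RAB20 and STC2 none of these 12 measures passed after adjustment. The largest r for RAB20 was -0.679 with 5 detected red cell markers (permutation adjusted p = 0.141), and STC2 gave -0.673 with the same list (permutation adjusted p = 0.141). The red cell markers held 0.00382% to 0.0255% of counts in sham and 0.00245% to 0.00602% in DHCA. Most of this share was the haemoglobin gene HBB, with a mean of 121.4 CPM in sham and 39.0 in DHCA. The next marker, ALAS2, had 5.0 and 2.41 CPM. Within the groups r for RAB20 was -0.331 in sham and 0.225 in DHCA, and for STC2 0.07 and -0.433. Within the groups RAB20 had larger r with the spiny neuron markers, 0.748 in sham and 0.963 in DHCA. With the microglia markers it had 0.888 and 0.809. Over all 12 libraries these r were 0.496 and 0.076. STC2 gave 0.90 in sham and 0.127 in DHCA with spiny neuron markers, and 0.822 and 0.101 with microglia markers. Sham 4 had the lowest share of both lists among sham libraries. Over both groups without Sham 4, r for STC2 was -0.166 with spiny neuron markers and -0.45 with microglia markers. For RAB20 the same values were 0.198 and -0.184. Each within-group r rests on 6 libraries, was picked from 12 measures and has no p-value. The part of these shares in the rise of RAB20 was not tested. The smallest p for STC2 was with the cortical or thalamic neuron markers that were high in Sham 4 (r -0.652, permutation p = 0.004, adjusted p = 0.0679; rho -0.503, adjusted p = 0.399). Without Sham 4 this r was -0.552, without Sham 4 and DHCA 3 it was -0.471, and within the groups it was -0.80 in sham and -0.34 in DHCA. RAB20 and STC2 were both lowest among sham libraries in Sham 4.

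The rest of the pathway was read from 3 further lists. The first holds the factors and their regulators (19 genes, 14 tested). None passed the edgeR test, 2 had an unadjusted p under 0.05, both higher, where 7.9% of all tested genes did, and the median log2 fold change was 0.16. The DESeq2 Wald test called 1, CITED2, and limma-voom with or without weights called 0. CITED2, an inhibitor that competes with the factor for its coactivators, ran from 6.59 to 29.3 CPM in sham and from 29.7 to 62.1 in DHCA, so the groups just missed overlapping. Its means were 20.9 ± 8.33 and 47.6 ± 11.09 CPM (SD, n = 6 piglets each; log2 fold change 1.16, SE 0.28, edgeR adjusted p = 0.161), and DESeq2 gave 1.17 (adjusted p = 0.00983). Without Sham 1 and Sham 5 the log2 fold change of CITED2 was 0.93 (edgeR adjusted p = 0.152). Without Sham 4 as well it was 0.86 (edgeR adjusted p = 0.378), and limma-voom with quality weights gave 0.77 (adjusted p = 0.0716). HIF1A, the oxygen-regulated subunit itself, had 81.8 ± 40.3 CPM in sham and 146 ± 34.3 in DHCA (log2 fold change 0.83, SE 0.32, edgeR adjusted p = 0.488). Without Sham 1 and Sham 5 the log2 fold change of HIF1A was 0.52 (adjusted p = 0.567), and without Sham 4 as well it was 0.44 (adjusted p = 1.00). SIAH1, a ubiquitin ligase that acts on the EGLN hydroxylases, gave 0.39 (SE 0.20, edgeR adjusted p = 0.688).

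The second list holds other targets outside glycolysis (50 genes, 45 tested). Of these 2 rose and none fell (4.44%), beside 0.136% of all tested genes that rose and 0.05% that fell. At an unadjusted p under 0.05, 11 stood higher after DHCA and none lower, and the median log2 fold change was 0.20. ADM, which encodes the vasodilator peptide adrenomedullin, was one of the 2, with a log2 fold change of 3.43 (SE 0.36, edgeR adjusted p = 0.00261). Over all tested genes 3.43% were higher at that unadjusted p and 4.47% lower. The list was chosen with earlier results of these data known, so these shares are a description and cannot show an excess. Without Sham 1, Sham 4 and Sham 5 none of this list passed.

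The third list holds glycolytic targets (22 genes, 19 tested). None passed the edgeR test, and the median log2 fold change was 0.00. At an unadjusted p under 0.05 there was 1, higher after DHCA, where 7.9% of all tested genes had such a p. DESeq2 and limma-voom with quality weights each called 1, PFKFB4, and limma-voom without weights called 0. PFKFB4, which makes the activator of phosphofructokinase, had 26.2 ± 4.23 CPM in sham and 38.8 ± 6.81 in DHCA (SD, n = 6 piglets each; log2 fold change 0.58, SE 0.17, edgeR adjusted p = 0.275). Its relative PFKFB3 gave 0.38 (SE 0.21, edgeR adjusted p = 0.75), and the hexokinase gene HK2 gave 0.41 (SE 0.29, edgeR adjusted p = 0.783).

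**Figure D5:**
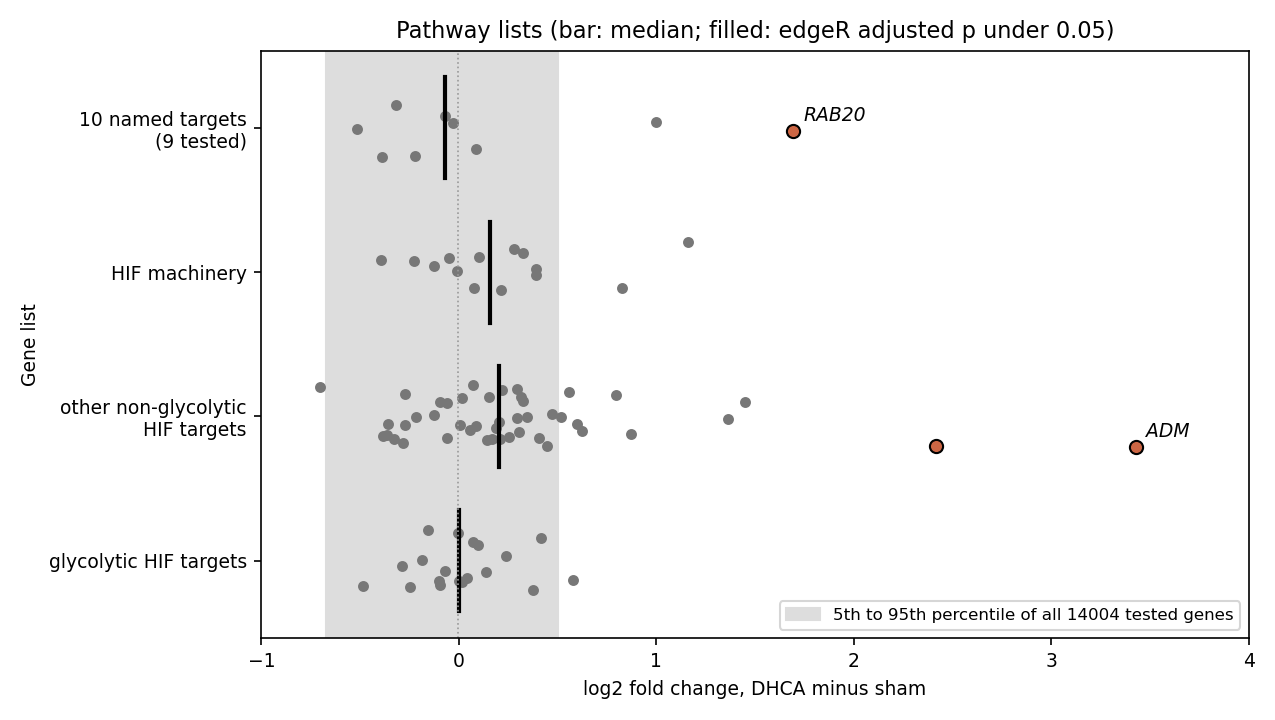
Log2 fold change, DHCA minus sham (horizontal axis), of every tested gene in the 4 lists (rows: the 9 members, the factors and regulators, other targets outside glycolysis and glycolytic targets), 1 point per gene, with the list median as a bar and the 5th to 95th percentile of all tested genes (-0.67 to 0.50) shaded. The 3 genes that passed the edgeR test are in colour, RAB20 and ADM among them, and most genes of each list lie in the shaded range.

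In the authors' deposited table RAB20 had a log2 fold change of 1.73 (SE 0.351, adjusted p = 0.000346). STC2 had 0.999 there (authors' deposited table, SE 0.309, adjusted p = 0.0773). RAB20 was the only one of the 10 members under 0.05 in the authors' deposited table, against 220 of 17108 genes (1.29%). The other 8 members had adjusted p between 0.583 and 0.988 in the authors' deposited table. The sign was the same as here for 9 of 9 tested members. The direction of that table was itself read from its likeness to the fold changes here, so the shared signs are no separate check.

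The genes whose levels were most like those of RAB20 over the 12 libraries, among 11771 genes with a mean of at least 5 CPM, were SLA, PDK2 and FZD4. Their Pearson's r on log2 CPM was 0.945, 0.938 and 0.937, with rho 0.958, 0.923 and 0.923. Leaving out Sham 4 and DHCA 4, the libraries farthest from the median of RAB20, left r at 0.921, 0.92 and 0.904. SLA and FZD4 also passed the edgeR test between groups (log2 fold change 2.04, adjusted p = 0.0116, and 1.13, adjusted p = 0.0279), and PDK2 did not (0.24, adjusted p = 0.672). For VEGFA the nearest were JUN, INO80B and ZNF358, with r of 0.924, 0.92 and 0.92. Without Sham 1 and Sham 2 these fell to 0.814, 0.781 and 0.777. These likenesses include the difference between groups, or in VEGFA the high value of Sham 1, and are given as a description.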

How the data were processed

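RNA was prepared with RNeasy columns and TruSeq libraries and read on an Illumina HiSeq, per the labels' protocols. The deposited counts per Ensembl gene came from featureCounts 1.5.1 on Sscrofa11.1 exons, and no strand option was set, per the file headers. No source used here names the aligner. Of 18 library columns, 12 matched samples and 6 were not used. The authors' deposited comparison table gives a mean normalized signal, log2 fold changes, a statistic (a score) with its p-values, per the file headers. Its sign was read as DHCA minus sham, since fold changes correlated at 0.967 with those computed here across 14004 genes. The statistic in that table has the opposite sign to its fold change in all 21223 rows. In it, 86 genes with 0 counts in all 12 libraries have values.

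Counts were analysed in R 4.3.3 with edgeR 4.0.16 (filterByExpr, TMM, glmQLFit with robust estimation, glmQLFTest, group as the only term). The SE was taken from the F statistic. CPM is TMM-scaled, RPKM is CPM per kilobase of the deposited exon length, and log2 CPM used a prior count of 2. Alternatives were other scalings, the DESeq2 1.42.0 Wald test, limma 3.58.1 voom with and without quality weights, other filters, a block by library number, leaving out libraries and a threshold of 0.01. Correlations with marker shares used 100000 permutations and adjustment over 108 relations.

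The members and lists were chosen with earlier results of these data known. All 10 members were named, with every called gene of the other lists (1 of them, among other targets, is not reported here) or, where none was called, the 3 of smallest p, and the 3 genes most like RAB20 and VEGFA. VHL, EGLN2, AK4, SLC2A1 and SLC2A3 had no symbol match and were not analysed here. The steps were tested on simulated counts, with 100 genes changed 2-fold and 100 changed 4-fold. In edgeR 37% and 93% of these were recovered, and 3 unchanged genes were called. DESeq2 recovered 55% and 98% and called 33 unchanged genes. Plain limma-voom recovered 35% and 91% and called 4. Chi-square over its degrees of freedom was 8.50 to 125.8 for pairs of libraries of 1 group, so none was counted as a copy. Low totals limit precision, since 3 counts are 1.16 CPM in Sham 1.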

Additional observations from a re-analysis of the deposited data

Results flagged for a closer look

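Of 20 groups of 6 libraries (10 genes in 2 groups), 4 held a library that lay far from the other 5, by the gap to its neighbour over the whole range. Independent, normally distributed values would give such a gap in about 1 in 20 groups. The 20 groups here share the same 12 libraries and CPM need not be normally distributed. That rate is therefore only a rough guide, and an excess over it was not tested. VEGFA in sham had a gap of 0.665 of the range, with Sham 1 at 84.5 CPM and the others at 24.5 to 44.6. BNIP3 in sham had 0.719, with Sham 1 at 203.6 CPM and the others at 45.4 to 89.9. EGLN1 in sham had 0.76, with Sham 3 at 81.6 CPM and the others at 73.2 to 75.2. EGLN3 in DHCA had 0.752, with DHCA 3 at 14.9 CPM and the others at 5.36 to 7.72. Sham 1 was the second shallowest library, and DHCA 3 had the largest share of counts in oligodendrocyte markers, 6.10%. The part of these in the gaps was not tested.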

How the results depend on the processing

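Of the 207 fold changes of members under alternatives, 193 kept their direction, among them all those of RAB20 and STC2. The count of called genes, 26 in edgeR (19 higher), was 181 by DESeq2 (111 higher), 207 by limma-voom with quality weights (129), 12 without Sham 1 and Sham 5 (9), 1 without Sham 1, Sham 4 and Sham 5 (1), 6 at a threshold of 0.01 (5) and 9 to 51 (7 to 28) when 1 library was left out. The count of called members, 1 in edgeR, was 2 by DESeq2 and by limma-voom with quality weights. It was 0 with upper-quartile factors (RAB20 adjusted p = 0.0552), with plain limma-voom (adjusted p = 0.053), at 0.01, and without Sham 1 and Sham 5 or those and Sham 4, and 0 to 1 when 1 library was left out. Among factors and regulators DESeq2 called 1, and among glycolytic targets DESeq2 and limma-voom with quality weights called 1. Among other targets, 2 in edgeR, the count was 5 with quality weights, 1 at 0.01, 0 without Sham 1, Sham 4 and Sham 5, and 1 to 2 when 1 library was left out.

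The sign turned in BNIP3 with quality weights (0.15), without Sham 1 and Sham 5 (0.16) and without Sham 4 as well (0.28), and in NDRG1 under the same alternatives (0.0653, 0.24 and 0.27). Leaving out 1 library moved VEGFA between -0.0224 and 0.45, EGLN1 between -0.0635 and 0.000145, BNIP3 between -0.46 and 0.0659 and P4HA1 between -0.24 and 0.0791. None of these values passed, and the cause was not tested. With a block by library number, 8 genes were called (7 higher), 0 members (RAB20 1.66, adjusted p = 0.233) and 1 other target, and P4HA1 turned to 0.0244. The labels do not say whether library numbers pair animals. Same-numbered libraries deviated together with r from -0.388 to 0.338, and 1 of 12 correlated best with its own number. So few pairs, some with shallow libraries, cannot decide the question. Depth limits RAB20, STC2 and ANKRD37 most, with 219, 298 and 55 counts in all.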
